A study of Mus musculus with 14 samples.

Results

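The differentiation of control cells was followed in 4 of the 14 RNA-seq libraries of the study: 2 replicates of undifferentiated, untransduced cells at day 0 and 2 replicates of day 5 cells carrying the control hairpin Nons, which silences no gene. The 4 libraries are all those that the labels place in these conditions. All 4 came from female mouse embryonic stem (ES) cells derived from E3.5 embryos of 129/C57 dams and CAST sires, with the genotype Setdb1+/+ Xist-deltaA/+. Day 0 cells grew in 2i+LIF medium, while day 5 cells had been moved stepwise to serum medium without these factors, infected with a retrovirus and selected with puromycin. Differentiation, the change of medium, infection and selection therefore cannot be told apart. The study describes replicates 1 and 2 as independent experiments and reports that XO cells, which have lost an X chromosome, were present in this system. Their share was not measured here. In bulk RNA, fewer cells of a kind and less RNA per cell cannot be told apart.

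In female mammals 1 of the 2 X chromosomes is silenced early in development. The long non-coding RNA Xist coats the chosen chromosome, and its A repeat is needed for silencing, so a chromosome whose Xist lacks this repeat stays active. In these cells the mutant Xist lies on the 129 chromosome, which is the active X (Xa), and the CAST chromosome becomes the inactive X (Xi). Female ES cells still express both X chromosomes and start silencing when they differentiate, with genes of the same chromosome silenced at different speeds. Most silenced genes stay silent, while a few, such as Kdm5c and Kdm6a, are known to escape.

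The alleles were told apart at single base differences (SNPs) between the maternal X chromosome, called 129 here after the study, and the CAST X chromosome. The dams are labelled 129/C57 and the maternal base at each SNP is the mm10 reference base, so whether parts of this chromosome are of C57 origin was not tested. Short windows around such SNPs are shown for genes on which the results turn, 1 whose CAST share rose (Klhl13) and 3 in which it fell. Each window has 29 bases, lies within 1 exon inside the limits of the coding region, and is written 5′ to 3′ on the gene's own strand with the 129 base, the SNP, as the capital. Positions in a window are counted from 1 at its 5′ end, coordinates are those of mm10, and in C15T the 129 chromosome has C at position 15 and the CAST chromosome T.
Klhl13: cgtttggttacactCggaggagtcctgag
Utp14a: gacgtgcctgtcatGcagagcaatccaaa
Zdhhc9: ttctccatggccacGctgttgaggacaag
Rlim: cagtcttcggaaaaCgagcctgaaggaag
The Klhl13 window lies at chrX:23235543-23235571 on the minus strand, in exon 5 of 7, and carries C15T. The Utp14a window (chrX:48282254-48282282, plus strand, exon 15 of 15) carries G15C and the Zdhhc9 window (chrX:48194628-48194656, minus strand, exon 3 of 10) carries G15T. The Rlim window (chrX:103963530-103963558, minus strand, exon 5 of 5) carries C15T.

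Reads over these single bases already show both directions of change. At the Klhl13 SNP, 70 CAST and 91 reads of 129 were counted in replicate 1 at day 0 and 48 and 60 in replicate 2, against 371 and 168 in replicate 1 at day 5 and 94 and 25 in replicate 2. CAST reads were the minority in both day 0 libraries and the majority in both day 5 libraries. At the Utp14a SNP the day 0 counts were 36 CAST and 45 of 129, then 46 and 55, and the day 5 counts were 26 and 121, then 25 and 63. Here the CAST base went from slightly under the 129 base to a clear minority. The Zdhhc9 SNP had 14 CAST and 12 reads of 129, then 15 and 9, at day 0, and 11 and 25, then 2 and 9, at day 5. The Rlim SNP had 44 and 37, then 22 and 35, at day 0, and 89 and 176, then 24 and 32, at day 5, so that replicate 2 changed little at this base.

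The deposited values are raw counts of 129 and CAST reads at 2239 X-linked SNPs. Exons of a single gene hold 2173 of them, spread over 355 genes, and only these enter the values per gene. The totals were 79819 and 82899 reads at day 0 and 87088 and 32972 at day 5, so replicate 2 at day 5 was the shallowest library. Reads were summed per gene, and the Xi/Xa ratio is the log2 of (CAST + 1)/(129 + 1). The change per gene was tested with edgeR's quasi-likelihood test in the 265 genes that had 10 or more reads in all 4 libraries, and 90 genes did not reach this depth. Levels are reads of both alleles per 10000 SNP reads of the library, tested in the 319 genes with a mean of at least 10 reads over the 14 libraries, and 36 genes fell below this. A level is thus relative to the other X-linked genes, and a change shared by the whole chromosome does not appear in it. Adjusted p-values are Benjamini-Hochberg values from edgeR over all genes tested, and a gene is called below 0.05.

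The first comparison asks how far expression moved from the CAST to the 129 chromosome between day 0 and day 5. Over all X-linked SNP reads the CAST share was 48.1% and 49.3% at day 0 and 42.6% and 46.1% at day 5. The median gene had 47.5% and 49.1% CAST reads at day 0 and 41.9% and 45.7% at day 5. Both day 5 libraries lay below both day 0 libraries, and CAST reads still made up over 40% of the X-linked SNP reads in both. On the log2 scale the median Xi/Xa ratio over SNPs with at least 10 reads changed by -0.34 in replicate 1 and -0.21 in replicate 2, a mean of -0.28 ± 0.095 (SD, n = 2). It was -0.17 without day 5 replicate 1 and -0.39 without day 5 replicate 2. With 2 replicates an exact permutation test cannot go below p = 0.333 unpaired or 0.5 paired (two-sided), and these were the values found. In the 725 SNPs with at least 10 reads in all 4 libraries the medians were -0.08 in both day 0 libraries, then -0.41 in replicate 1 and -0.25 in replicate 2 at day 5, so the shift was also present in an identical set of SNPs.

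Few genes approached silence. Genes with under 30% CAST reads numbered 15 and 13 in the day 0 libraries and 27 and 22 in the day 5 libraries. In both libraries of a day there were 8 such genes at day 0 and 13 at day 5. Below 10% CAST there was no gene in either day 0 library, 1 in replicate 1 and 3 in replicate 2, the shallowest library, at day 5. The gene in replicate 1 was Efhc2, with 8.53%, which was already the lowest gene in day 0 replicate 1, with 10.3%. Counting genes with over 50% CAST reads in both day 0 libraries and under 50% in both day 5 libraries gave 28, and 4 genes went the opposite way.

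Gene by gene, 32 of the 265 genes (12.1%) had a changed Xi/Xa ratio, 30 of them lower at day 5 (11.3%) and 2 higher (0.755%). Unadjusted p was below 0.05 for 58 genes. With the 4 libraries fitted alone 17 genes were called and with DESeq2 12, all of them among the 32. The fitted log2 change was below 0 in 186 genes and above 0 in 79, with a median of -0.27 and quartiles of -0.58 and 0.03. In 130 genes (49.1%) the ratio was lower in both replicates and in 33 (12.5%) it was higher in both. All 30 genes called lower were lower in both replicates, with log2 changes between -0.64 and -2.59. Without the replicate block 24 genes were called, and the calls of Arxes2, AU015836, Foxo4, Gpkow, Nxf3, Pim2, Shroom2 and Snx12 were lost. When each library was first centred on its own median ratio, 22 genes were called, 12 lower and 10 higher. Of the 22, 14 were also called without centring: the 12 named lower genes described here, Klhl13 and Tmem47. The 8 others (Dkc1, Flna, Hcfc1, Med14, Rpgr, Uba1, Usp9x and Zfp185) are higher relative to the rest of the chromosome only. Their CAST shares moved little or rose, as in Uba1, a ubiquitin-activating enzyme, with 48.6% and 47.9% at day 0 and 47.2% and 49.2% at day 5.

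The replicates were unequal in precision. The change was negative in 199 genes in replicate 1 and in 163 in replicate 2, and across the 265 genes the changes of both replicates had a Pearson r of 0.362, given as a description since genes share libraries. Among the 141 genes that reached 50 reads everywhere r was 0.504. Without day 0 replicate 1 the test called 14 genes, and without day 5 replicate 1 or day 5 replicate 2 it called 15 each. Without day 5 replicate 1, 12 of the 15 were among the 32, and without day 5 replicate 2 all 15 were. Where a gene has several SNPs they can be compared within the gene, though from the same reads that gave the call. In the genes called lower, 179 of 190 SNPs with at least 10 reads in both libraries were lower in replicate 1 and 97 of 116 in replicate 2. Over all genes tested these shares were 67.1% of 1348 SNPs and 60.4% of 734. SNPs closer than a read length share reads, and with only the deepest SNP of each gene 171 genes could be tested and 4 were called (Bex2, Klhl13, Prps1 and Utp14a). All 21 called genes that could be tested in this way kept their direction.

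**Figure D1:**
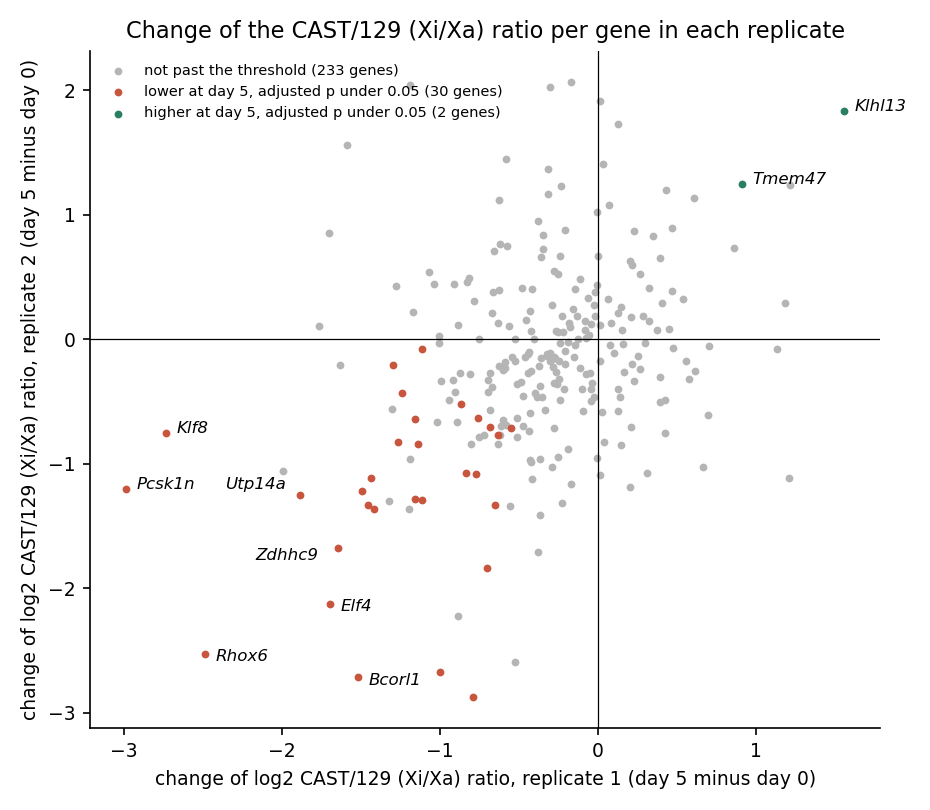
Change of the log2 CAST/129 (Xi/Xa) ratio from day 0 to day 5 for each of 265 genes, replicate 1 on the horizontal and replicate 2 on the vertical axis, both in log2 units. The 30 genes called lower (red) all lie at the lower left, Klhl13 and Tmem47 (green) lie in the upper right, and the 233 other genes (grey) centre slightly below 0 on both axes.

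The named genes with a lower ratio have diverse roles. Prps1 (chrX:140456613-140476140), which makes the phosphoribosyl pyrophosphate used to build nucleotides, had 1124 CAST and 748 reads of 129, then 1439 and 809, at day 0, and 240 and 433, then 162 and 197, at day 5. Its CAST share went from 60.0% and 64.0% to 35.7% and 45.1%, a log2 change of -1.29 (SE 0.18, adjusted p = 2.61e-10, edgeR). All 6 SNPs of Prps1 were lower in both replicates. Its paralog Prps2, which has the same enzyme activity, went from 57.7% and 60.2% to 38.2% and 45.7% CAST (log2 change -1.01, SE 0.20). In both enzymes CAST reads were the majority at day 0 and the minority at day 5. Because the paralogs are similar in sequence, some of their reads could have been counted for the other gene.

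Ap1s2, a subunit of the AP-1 clathrin adaptor, was strongly biased to CAST at day 0, with 77.1% and 81.4%. At day 5 it had 55.0% and 63.7% CAST (log2 change -1.56, SE 0.24, adjusted p = 6.71e-09, edgeR), so its day 5 libraries lay below its day 0 libraries without reaching equal shares. The change was -1.46 in replicate 1 and -1.33 in replicate 2, and -1.42 in the fit of the 4 libraries alone (adjusted p = 0.00139, edgeR). Without day 5 replicate 1 it was -1.02 and not called. Klf8, a Krüppel-like transcription factor, went from 62.6% and 54.9% to 19.3% and 41.4% (log2 change -1.96, SE 0.42), with a change of -2.73 in replicate 1 and -0.75 in replicate 2. It was not called without day 5 replicate 1. Pls3, which bundles actin filaments, went from 69.1% and 66.9% to 43.9% and 46.1% (log2 change -1.39, SE 0.34), and all 3 of its SNPs were lower in both replicates. It too was not called without day 5 replicate 1.

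Among genes with few reads, Pcsk1n and Rhox6 had the lowest fitted changes. Pcsk1n encodes proSAAS, an inhibitor of a prohormone convertase, and had 62 CAST and 16 reads of 129, then 19 and 13, at day 0, and 14 and 31, then 12 and 20, at day 5 (log2 change -2.40, SE 0.52). Rhox6, a homeobox gene of the X-linked Rhox cluster, had 23 and 7, then 51 and 14, at day 0, and 14 and 27, then 5 and 9, at day 5 (log2 change -2.59, SE 0.60). Groups did not overlap in either gene, but Rhox6 rests on 14 reads in the shallowest library and was not called without day 5 replicate 1, nor Pcsk1n without day 0 replicate 1. Arxes1, which has a near copy in Arxes2, went from 59.6% and 63.4% to 41.7% and 19.4% CAST and was not called without day 0 replicate 2 or day 5 replicate 2, nor with the 4 libraries alone (adjusted p = 0.0629), DESeq2 (0.093) or 1 SNP (0.535). Rhox6 was not called with DESeq2 either (adjusted p = 0.093). Arxes2 itself went from 52.1% and 54.7% to 40.7% and 31.8%, and reads may be shared between the copies.

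A stretch between 48.2 and 48.7 Mb held 5 of the 30 genes called lower. In order along the chromosome these were Zdhhc9 (chrX:48171969-48208878), Utp14a (chrX:48256862-48282453), Bcorl1 (chrX:48341358-48408049), Elf4 (chrX:48411046-48463132) and Rbmx2 (chrX:48695004-48710723). The interval from 40 to 50 Mb had 5 of 11 tested genes called lower, against 11.3% of all genes, and a median log2 change of -0.80. The interval from 130 to 140 Mb also held 5 genes called lower, of 23 tested, with a median of -0.45. Elf4 and Rbmx2 were not called with DESeq2 or after centring, so 3 of the 5 genes remained called in those fits. The interval from 40 to 50 Mb was singled out after its values were seen. In the other intervals of 10 Mb with at least 5 genes the medians lay between -0.48 and 0.02. Zdhhc9, a palmitoyltransferase that adds lipid to proteins, went from 40% and 47.9% CAST to 17.5% and 21.9% (log2 change -1.74, SE 0.29, adjusted p = 1.28e-07, edgeR). Utp14a, a nucleolar protein needed to process the RNA of the small ribosomal subunit, went from 45.9% and 41.0% to 18.5% and 22.4% (log2 change -1.59, SE 0.26, adjusted p = 4.21e-08). In both genes the day 0 shares were somewhat under equality and both day 5 shares were clearly smaller. Bcorl1, a transcriptional corepressor, went from 50.0% and 48.3% to 25.5% and 10.5% (log2 change -1.98, SE 0.50), and lost its call without day 0 replicate 2 or without day 5 replicate 2, where it had 38 reads. Elf4, an ETS family transcription factor, had 86 CAST and 85 reads of 129, then 69 and 87, at day 0, and 9 and 31, then 1 and 10, at day 5. Rbmx2, an RNA-binding protein, went from 46.9% and 43.6% to 27.1% and 36.3%. Between Elf4 and Rbmx2 lie Zfp280c and Slc25a14, which were not called. Zfp280c had a log2 change of 0.23 (SE 0.29, adjusted p = 0.687) and Slc25a14, with few reads, -0.80 (SE 0.70, adjusted p = 0.555). Outside the stretch, the tested gene before Zdhhc9, Ocrl, had -0.20 (SE 0.26, adjusted p = 0.69).

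Klhl13 and Tmem47 were the 2 genes whose CAST share was called higher without centring. Klhl13 (chrX:23219271-23365082), an adaptor of the cullin 3 ubiquitin ligase, had 193 CAST and 256 reads of 129, then 137 and 187, at day 0, and 1101 and 496, then 306 and 116, at day 5. Its CAST share went from 43.0% and 42.3% to 68.9% and 72.5% (log2 change 1.69, SE 0.21, adjusted p = 8.89e-14, edgeR), and all 4 SNPs were higher in both replicates. Tmem47, a small membrane protein of cell junctions, went from 27.2% and 24.1% to 41.5% and 43.4% CAST (log2 change 1.08, SE 0.27, adjusted p = 0.00124), with 11 of 11 SNPs higher in replicate 1 and 6 of 7 in replicate 2. In Klhl13 the majority passed from 129 to CAST, whereas Tmem47 kept a 129 majority in all 4 libraries. Tmem47 was not called without day 0 replicate 2.

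**Figure D2:**
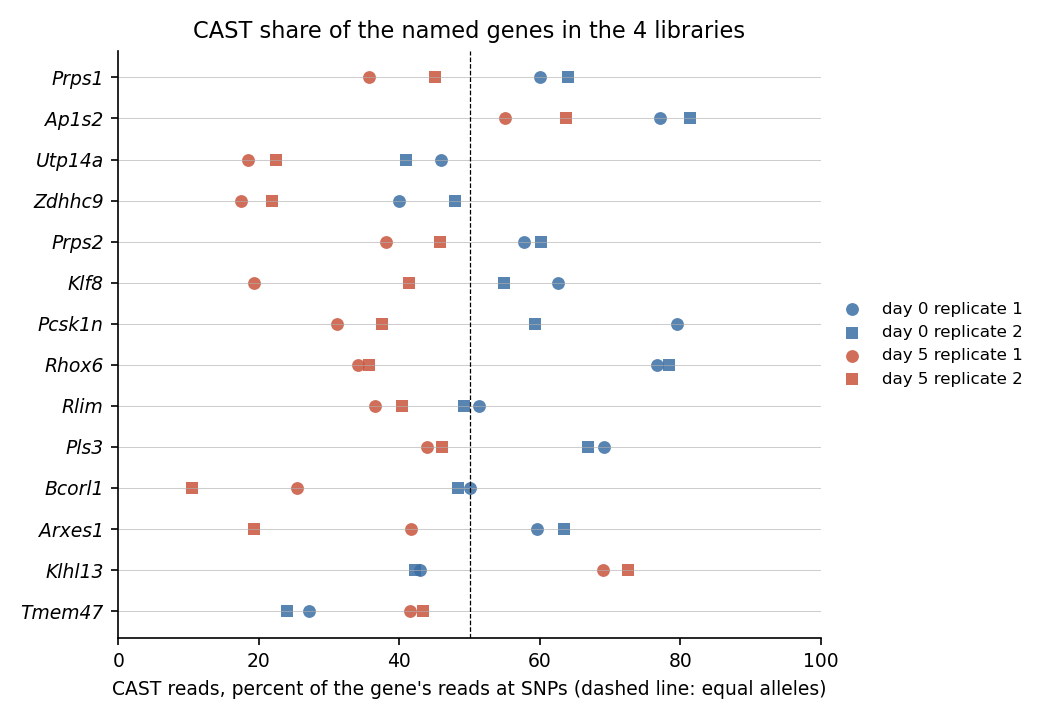
Percent of CAST reads (horizontal axis) of the 12 named genes with a lower ratio and the 2 with a higher ratio at day 5, 1 mark per library (blue day 0, red day 5, circles replicate 1, squares replicate 2). In the upper 12 genes both red marks lie left of both blue marks, from Prps1 with 35.7% and 45.1% at day 5 to Arxes1 with 41.7% and 19.4%, and in Klhl13 and Tmem47 they lie to the right.

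A ratio can fall because CAST reads fall, because 129 reads rise, or both, so each allele was also tested by itself against the reads of both alleles in the library. These tests use the same reads as the ratio and are not independent of it. CAST reads were called in 68 of 313 genes (21.7%), 48 lower (15.3%) and 20 higher (6.39%), with a median log2 change of -0.33. Reads of 129 were called in 59 of 317 genes (18.6%), 27 lower (8.52%) and 32 higher (10.1%), with a median of -0.03. These balances move with the scaling. Under TMM, a scaling that aligns the bulk of genes, CAST calls were 35 lower and 27 higher (median -0.17) and 129 calls 24 lower and 49 higher (median 0.14). Scaled to the 129 reads of the library, CAST calls were 57 lower and 17 higher (median -0.46) and 129 calls 41 lower and 28 higher (median -0.15). With the replicate block added to the model, CAST calls were 61 lower and 24 higher and 129 calls 42 lower and 47 higher. Which allele is called in a gene therefore holds for the main scaling and the model without the block. Among the 30 genes with a lower ratio, 7 had fewer CAST reads with no call on 129 (among them Ap1s2, Arxes1, Gpkow, Klf8, Piga and Pnma5), and 2 had fewer reads of both alleles (Elf4 and Prps1). In 5 genes reads of 129 rose and CAST reads were not called (Acsl4, Bcorl1, Foxo4, Utp14a and Zdhhc9), and in 5 both alleles rose, 129 more than CAST (Ctps2, Pim2, Rlim, Rnf128 and Shroom2). The other 11 had no call on either allele alone.

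Utp14a and Zdhhc9 show the pattern in which only 129 was called. The log2 change of Utp14a was 1.27 for 129 reads and -0.30 for CAST reads, and that of Zdhhc9 was 1.39 and -0.33. Prps1 shows the other pattern, with -0.81 for 129 and -2.06 for CAST. Klf8 had -0.30 for 129 and -2.14 for CAST. In Klhl13 the rise was larger on CAST, with 2.43 against 0.77 for 129, and only CAST was called. In Tmem47 the log2 change was 2.95 for CAST and 1.87 for 129.

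**Figure D3:**
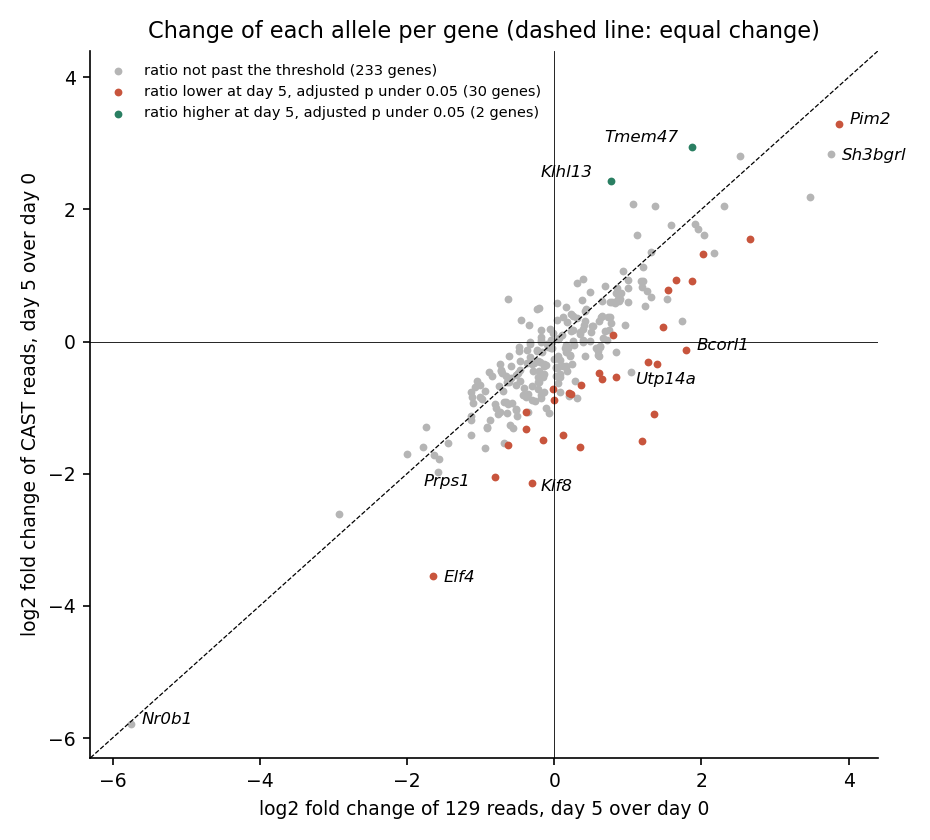
Log2 fold change of 129 reads (horizontal axis) and CAST reads (vertical axis) from day 0 to day 5 for the 265 genes tested for the ratio, scaled to the reads of both alleles. Genes called lower (red) lie below the dashed line of equal change, with Utp14a and Bcorl1 to the right of 0 and Prps1, Klf8 and Elf4 to its left, Klhl13 and Tmem47 (green) lie above it, and Nr0b1, at -5.75 and -5.79, lies on it.

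Rlim, the X-linked ubiquitin ligase that promotes Xist activation, is of particular interest to X inactivation. It had 844 CAST and 802 reads of 129, then 494 and 509, at day 0, and 1399 and 2430, then 509 and 753, at day 5. Its level rose from 206.2 and 121.0 reads per 10000 to 439.7 and 382.7 (log2 fold change 1.33, SE 0.24, adjusted p = 0.000917, edgeR), and its CAST share went from 51.3% and 49.3% to 36.5% and 40.3% (log2 change -0.71, SE 0.16, adjusted p = 0.00041). Reads rose on both alleles, by 1.65 for 129 and 0.93 for CAST on the log2 scale. All 16 SNPs were lower in replicate 1 and 13 of 16 in replicate 2, and the ratio was not called without day 0 replicate 1. Of the 9 listed genes of the X inactivation centre, 3 had SNPs, of which Rlim rose in level, 1 fell and 1 was not called, and 2 had a lower ratio, where 27.6% of all genes were called in level and 11.3% had a lower ratio. Chic1, a palmitoylated membrane protein, was not called for its ratio, and its level had a log2 fold change of 0.71 (adjusted p = 0.112, or 0.0492 with the TMM scaling described with the levels).

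Escape genes were measured in 6 of 8 listed cases, and none of the 5 tested for the ratio was called, where 12.1% of all genes were, so that 0 of 5 is no result about these genes. Kdm6a, a histone H3K27 demethylase, had 48.2% and 54.0% CAST at day 0 and 52.3% and 48.1% at day 5 (log2 change 0.01, SE 0.32). Kdm5c, a histone H3K4 demethylase, had 51.4% and 48.6%, then 46.1% and 46.6% (log2 change -0.20, SE 0.19). Ddx3x, an RNA helicase, had 52.6% and 50.9%, then 43.4% and 47.9% (log2 change -0.36, SE 0.20). Eif2s3x, a subunit of translation initiation factor 2, had 41.6% and 48.6%, then 53.7% and 47.7% (log2 change 0.36, SE 0.25). Pbdc1 had 40.3% and 55.6%, then 45.5% and 37.1% (log2 change -0.30, SE 0.26). The day 0 and day 5 shares overlapped in Kdm6a, Eif2s3x and Pbdc1 and did not in Kdm5c and Ddx3x. The median of the list was -0.20 against -0.27 over all genes tested, and with so few members no difference between escape genes and the rest was tested. Kdm6a rose in level, from 14.3 and 18.1 to 33.0 and 24.0 reads per 10000 (log2 fold change 0.83, adjusted p = 0.0238, edgeR). It was the 1 gene called in level of the 6, where 11.3% of all genes were higher, so this count is no result about the list. Hprt, a purine salvage enzyme often used to follow X inactivation, had 43.6% and 39.9% CAST at day 0 and 33.9% and 36.1% at day 5 (log2 change -0.41, SE 0.20, adjusted p = 0.176). Its day 5 shares lay below both day 0 shares without passing the test.

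The second comparison asks which X-linked genes changed in level while the cells left the ES state. Of 319 genes, 88 (27.6%) were called, 36 higher (11.3%) and 52 lower (16.3%) at day 5, and 130 had an unadjusted p below 0.05. The day 5 libraries lay above both day 0 libraries in 79 genes (24.8%) and below both in 110 (34.5%), and all 88 called genes were among these. The balance of directions depends on the scaling. With TMM factors, which align the bulk of genes and move the median log2 fold change from -0.17 to -0.01, 46 genes were higher and 35 lower, so that the share of higher genes among the calls was 56.8% in place of 40.9%. Scaled to the 129 reads of the library, it went the other way, with 32 higher, 76 lower and a median of -0.30. All 36 higher genes and 35 of the lower genes were called with both the main scaling and TMM. With the 4 libraries fitted alone 37 genes were called, 17 higher and 20 lower. With 1 SNP per gene 52 were called, 29 higher and 23 lower. Without day 5 replicate 2, 49 genes were called.

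Nr0b1 (chrX:86191764-86195947), also known as Dax1, a nuclear receptor that belongs to the pluripotency network of ES cells, had the smallest adjusted p of any level. It had 73.7 and 136.1 reads per 10000 at day 0 and 1.38 and 3.03 at day 5 (log2 fold change -5.75, SE 0.45, adjusted p = 5.9e-07, edgeR). The counts were 588 and 1128 reads at day 0 and 12 and 10 at day 5. Both alleles fell, with log2 fold changes of -5.79 for CAST and -5.75 for 129, and with so few reads at day 5 its ratio is not informative (log2 change 0.02, SE 0.66). The unnamed transcript 4930550L24Rik went from 14.9 and 28.95 to 0.459 and 0 reads per 10000. Gm14820, another gene without a given name, had 129 reads over both day 0 libraries and 0 in both day 5 libraries, which makes it at least 31.7-fold lower at day 5 against a floor of 3 reads over the group.

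The other named genes with lower levels act in metabolism, membranes and signalling. Mcf2, a guanine nucleotide exchange factor, went from 32.6 and 49.3 to 7.46 and 3.34 reads per 10000 (log2 fold change -2.81). Mtm1, a phosphoinositide phosphatase, went from 9.90 and 13.5 to 1.84 and 0.303 (log2 fold change -3.14). Prps1 went from 234.5 and 271.2 to 77.3 and 108.9 (log2 fold change -1.45), which joins a lower level to its lower CAST share. Glycerol kinase (Gk), the sterol isomerase Ebp, Magt1, an accessory protein of N-glycosylation, and dystrophin (Dmd) had log2 fold changes of -1.66, -1.67, -1.48 and -1.69. In each of these named genes both day 5 libraries lay below both day 0 libraries and both alleles were called lower.

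Named genes with higher levels were led by Sh3bgrl, a small thioredoxin-like protein, with 7.39 and 6.15 reads per 10000 at day 0 and 68.8 and 59.4 at day 5 (log2 fold change 3.24, SE 0.29, adjusted p = 1.84e-06, edgeR). Tmem47 went from 21.7 and 16.04 to 88.5 and 89.5 (log2 fold change 2.24), and Klhl13 from 56.3 and 39.1 to 183.4 and 128.0 (log2 fold change 1.71). Both genes with a higher CAST share therefore also rose in level. Filamin A (Flna), which crosslinks actin filaments, was the most abundant of these 10 genes, with 111.5 and 168.2 reads per 10000 at day 0 and 372.7 and 515.9 at day 5 (log2 fold change 1.67). Its CAST share stayed between 39.7% and 45.6% in the 4 libraries, so that both alleles rose together. Itm2a, a membrane protein, went from 2.00 and 1.33 to 10.7 and 17.3 (log2 fold change 3.03), and Armcx2, of the armadillo repeat family, from 2.88 and 5.07 to 24.7 and 24.9 (log2 fold change 2.63). Shroom2, an actin-binding protein of epithelial cells, the Mediator subunit Med14, the kinase Map3k15 and the tetraspanin Tspan7 had log2 fold changes of 1.71, 1.70, 1.84 and 2.20.

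**Figure D4:**
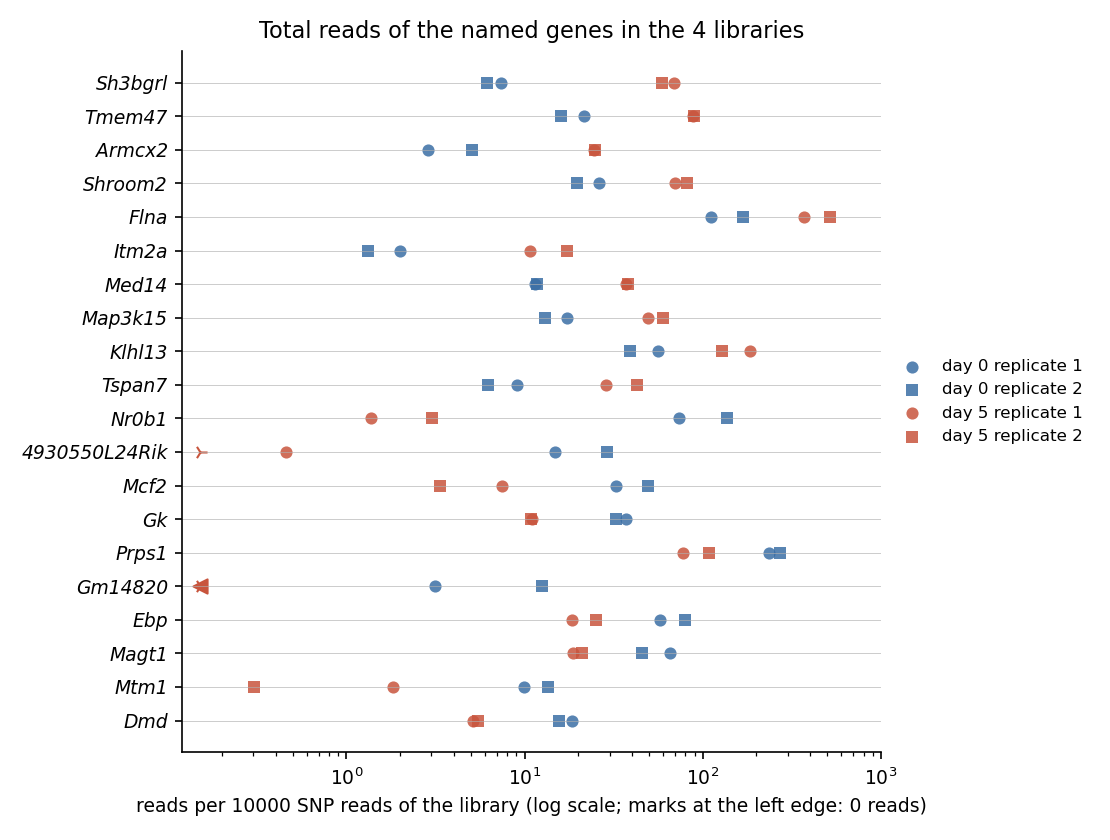
Reads of both alleles per 10000 SNP reads of the library (horizontal axis, log scale) for the 10 named genes higher and the 10 named genes lower at day 5, 1 mark per library (blue day 0, red day 5, circles replicate 1, squares replicate 2). The red and blue marks do not overlap in any of these genes, Nr0b1 spans 136.1 to 1.38, and marks at the left edge stand for 0 reads in 4930550L24Rik and Gm14820.

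Calls in level and in ratio were then set side by side. Of the 36 genes with higher levels, 9 had a lower and 2 a higher Xi/Xa ratio, and of the 34 genes with lower levels that were tested for the ratio, 6 had a lower ratio and none a higher one. Of the 195 genes tested for the ratio without a call in level, 15 had a lower ratio. The median ratio change was -0.27 in genes with higher levels, -0.22 in genes with lower levels and -0.28 in those without a call. The Pearson r of level change and ratio change was -0.029 over 265 genes, a description over genes measured in the same libraries, in which levels that rose and levels that fell both occur with lower ratios. By allele, 17 of the 36 higher genes were called higher on both, 12 on 129 only, 2 on CAST only (Klhl13 and Suv39h1) and 5 on neither. Of the 52 lower genes 21 were called on both alleles, 20 on CAST only, 5 on 129 only and 6 on neither. A call on only 1 allele does not show that the alleles differ, which the ratio test addresses.

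Genes known from pluripotent cells moved in both directions. Of 26 listed genes, 15 had SNPs and 12 were tested for their level, of which 5 were called higher, 2 lower and 5 not (11.3% higher and 16.3% lower over all genes), with a median of 0.15 against -0.17. Besides Nr0b1, the lower one was Xlr3a, of a family of similar copies, from 60.1 and 51.3 to 31.6 and 29.7 reads per 10000. The higher ones included Dusp9, Klhl13, Pim2 and Taf7l. Dusp9, a phosphatase of MAP kinases, went from 34.1 and 30.8 to 57.3 and 53.1, and Taf7l, a relative of a general transcription factor subunit, from 2.13 and 1.21 to 6.66 and 6.98. Among the markers chosen to check the ES label, Nr0b1 thus fell, Dusp9 rose, and Tfe3 was not called (log2 fold change 0.21). Pim2, a survival kinase, had 19.8 reads per 10000 in both day 0 libraries and 105.8 and 365.8 at day 5 (log2 fold change 3.56, SE 0.66, adjusted p = 0.000936, edgeR), so the day 5 replicates differed from each other more than 3-fold. Its CAST share went from 55.7% and 61.6% to 46.2% and 49.3%, which was called with the replicate block (adjusted p = 0.0486) and not without it (adjusted p = 0.217).

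Lineage and patterning genes also moved in both directions. Of 19 tested, 5 were called higher, 2 lower and 12 not (11.3% higher and 16.3% lower over all genes), with a median of 0.11 against -0.17. Tspan7 was one of the higher ones, together with Dlg3, a scaffold of cell junctions and synapses, from 5.26 and 5.91 to 16.7 and 24.9 reads per 10000, and Maged2, Tceal8 and Tceal9. Glypican 4 (Gpc4), a heparan sulphate proteoglycan of the cell surface, fell from 18.4 and 30.3 to 6.43 and 9.71, and Ammecr1 was lower (log2 fold change -0.85), the latter not under TMM (adjusted p = 0.0633), where Gpc3 was higher (adjusted p = 0.0464). In the ratio, 1 of 16 genes was called, where 12.1% of all genes were. This was Bex2, with 56.8% and 53.9% CAST at day 0 and 37.5% and 31.7% at day 5 at its single SNP. The markers of other cell types gave no uniform picture. None of 4 neural genes was called in level (under TMM Gprasp1 was higher, adjusted p = 0.0227), and their summed level was 119.9 to 136.3 reads per 10000 at day 0 and 148.6 to 190.2 at day 5. Gprasp1 made up most of this sum, with 105.9 and 93.5 at day 0 and 158.7 and 127.4 at day 5, so it does not show a rise of the group. Of 4 mesenchymal and matrix genes Flna rose and Timp1, an inhibitor of metalloproteinases, fell from 8.52 and 5.91 to 1.03 and 1.21. Their summed level was 356.8 and 378.8 at day 0 and 529.1 and 696.6 at day 5. Moesin (Msn), which links actin to the membrane, made up most of it at day 0 and Flna at day 5. Of 9 blood cell markers only Arhgap4 had SNPs, with 10 and 9 reads at day 0 and 0 in both day 5 libraries. The part of other cell types in the results was not tested.

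Among chromatin regulators 18 of 23 were not called in level, 4 were higher (Bcorl1, Kdm6a, Rlim and Suv39h1) and Zmym3 was lower, a share of calls near the 27.6% of all genes. Under TMM Ogt was higher too (adjusted p = 0.0464). Suv39h1, a histone H3K9 methyltransferase, had 2.76 and 1.69 reads per 10000 at day 0 and 5.28 and 9.10 at day 5 (log2 fold change 1.64, adjusted p = 0.0137, edgeR), read at a single SNP. Zmym3, a zinc finger protein of deacetylase complexes, went from 27.2 and 37.1 to 10.8 and 5.76 (log2 fold change -1.88). In the ratio 2 of 23 were called, Bcorl1 and Rlim, both lower, against 12.1% of all genes, and the list's median of -0.24 was close to the -0.27 of all genes.

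Metabolic genes had lower and higher levels. In the list of glycolysis, the pentose phosphate pathway and nucleotide synthesis, 3 of 12 genes were lower in level (Gk, Phka1 and Prps1) and 1 higher, Ctps2, a CTP synthase, from 16.5 and 11.2 to 34.6 and 38.2 reads per 10000. Over all genes 16.3% were lower and 11.3% higher. Under TMM G6pdx and Pfkfb1 were higher as well, which makes 3 higher and 3 lower. In the ratio 3 of 11 were lower (Ctps2, Prps1 and Prps2) against 11.3% of all genes, and the median was -0.43 against -0.27. Reads of Prps1 and Prps2 may be shared, and Hprt, of the same list, was not called. CTP synthase 2 had 59.1% CAST in both day 0 libraries and 44.5% and 40.5% at day 5 (log2 change -0.94, adjusted p = 0.0338, edgeR). Its ratio was not called with DESeq2 or after centring. Of 7 mitochondrial genes 3 were lower in level (16.3% of all genes), of which Hccs and Idh3g were not called under TMM (adjusted p = 0.13 and 0.11). Of 21 genes of vesicle traffic, lysosomes and lipids 4 were lower (Chm, Ebp, Idh3g and Ocrl) and none higher, with a median of -0.34, while under TMM 3 were lower and Acsl4 was higher. Ap1s2 and Acsl4, an enzyme that activates long-chain fatty acids, had the lower ratios of this list. They were 2 of 18 genes tested, near the 11.3% of all genes. Acsl4 went from 59.5% and 57.7% to 47.7% and 45.5% CAST, and was not called with DESeq2 or after centring.

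The remaining lists cover protein synthesis, RNA processing, protein turnover and signalling, with shares of level calls to be read against the 27.6% of all genes. In translation and ribosome biogenesis 2 of 7 genes were higher in level, Utp14a from 30.3 and 36.2 to 48.3 and 67.6 reads per 10000 and the initiation factor Eif1ax from 28.3 and 32.4 to 40.8 and 66.4. Of 17 RNA processing genes none was higher and 2 were lower, Fmr1 and the splicing factor Zrsr2, neither of them under TMM (adjusted p = 0.0546 and 0.175), and under TMM Rbm3 and Rbmx were higher instead. Nxf3 and Rbmx2 had lower ratios, 2 of 15 genes tested, near the 11.3% of all genes with a lower ratio. Of 12 ubiquitin and proteasome genes Klhl13, Rlim and Ubqln2 rose and none fell. This list had the only median ratio above 0, at 0.04 over 10 genes, with Rlim lower and Klhl13 higher. Of 18 signalling genes 5 were higher (Dusp9, Itm2a, Map3k15, Pim2 and Pja1) and 2 lower (Irak1 and Mtm1), against 11.3% and 16.3% of all genes, and Irak1 was not called under TMM (adjusted p = 0.146).

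**Figure D5:**
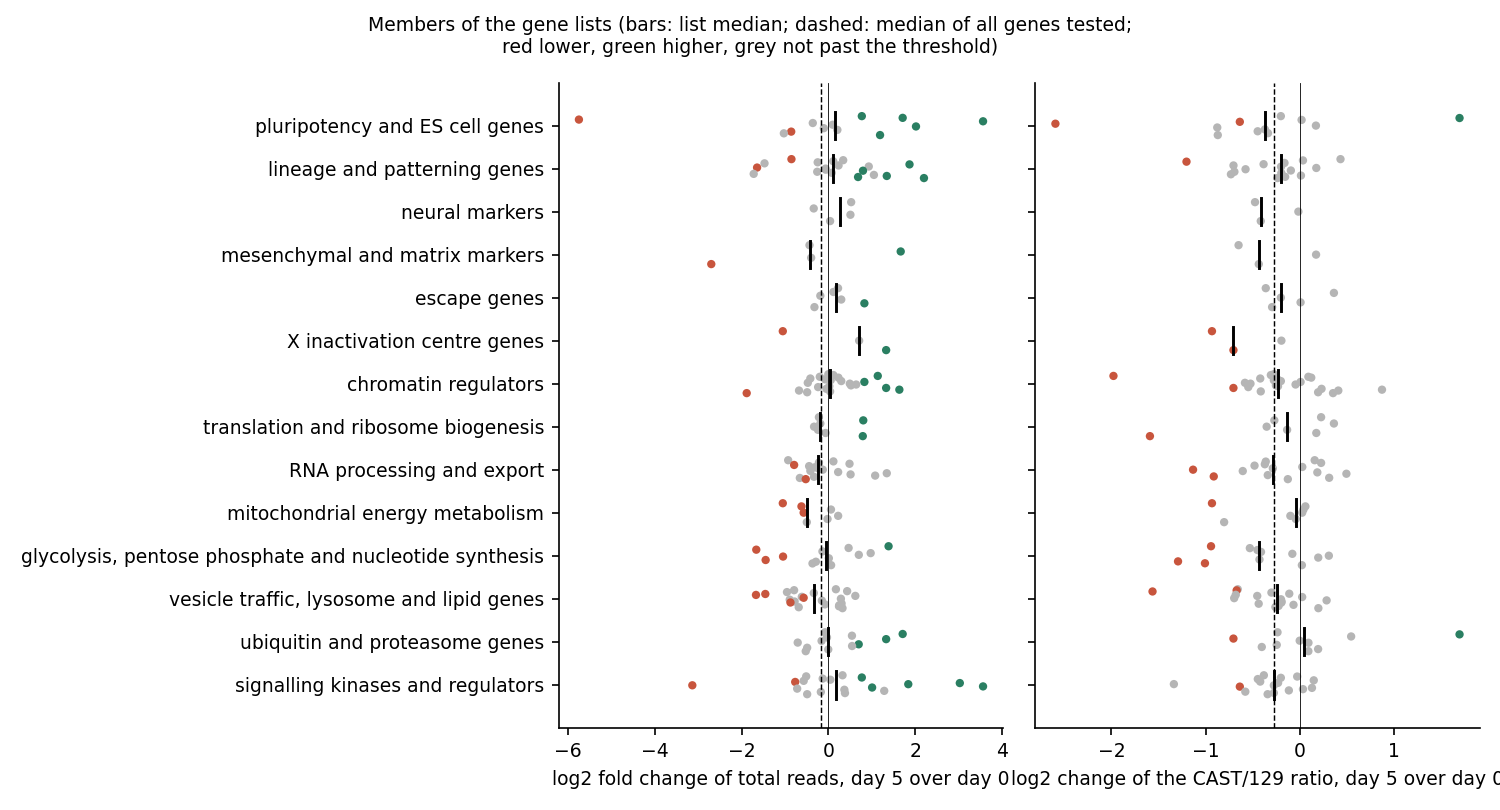
Log2 fold change of total reads (left) and log2 change of the CAST/129 ratio (right) from day 0 to day 5 for the tested members of 14 gene lists, 1 dot per gene (red called lower, green called higher, grey not called), with the list median as a bar and the median of all genes tested as a dashed line. Level changes spread to both sides in most lists, while ratios lie mostly left of 0, with 1 green dot, Klhl13, which stands in 2 lists.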

How the data were processed

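RNA was extracted with RNeasy, libraries were made with TruSeq RNA v2 kits, and 100 bp single-end reads were sequenced. Reads were aligned by the authors (Subread, mm10), and the deposited counts come from samtools pileup at Mouse Genomes Project SNPs. They give the reads with the 129 (reference) or CAST base, and are raw and not pooled. Another 4 count columns matched no sample label and were not used. No source says that strand was used in counting, so reads of overlapping, antisense or near-identical genes may have been counted together. The day of transduction is given differently in the methods, a figure legend and the labels.

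SNPs were assigned to genes by GENCODE vM21 exons, and 31 SNPs in exons of 2 genes and 35 outside exons were used only for the library totals, shares and medians. Counts per gene were tested with edgeR 4.0.16 (R 4.3.3). All 14 libraries, 7 conditions in 2 replicates, shared one estimate of the spread. The ratio model had a term per library, an allele effect per condition and one for the replicate number (block). The models of levels and of single alleles had the condition alone, with the reads of both alleles as library size. The scripts were tested on simulated data. DESeq2 1.42.0, other scalings, filters, the block, and libraries left out were the alternatives. Summaries were made with Python 3.11.15, numpy 2.4.6 and pandas 2.3.3.

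The comparison and the 15 gene lists were chosen with earlier results of these data known. Genes were named by a rule: the 12 called lower ratios with the smallest adjusted p and up to 6 called higher, the 10 levels with the smallest adjusted p in each direction, called list members or otherwise up to 4 with the most reads, and Hprt, Ap1s2 and Klhl13. Genes named beyond it (the 40 to 50 Mb interval and genes listed by allele or scaling) were chosen after their values were seen. Depth is the number of SNP reads, which without molecular identifiers can include copies of 1 molecule. Some genes and sequences covered by the rule are not reported here.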

Additional observations from a re-analysis of the deposited data

How the results depend on the processing

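The median change of the Xi/Xa ratio stayed below 0 under all alternatives run, between -0.39 (without day 5 replicate 2) and -0.17 (without day 5 replicate 1). The count of 32 genes with a changed ratio was 17 when the 4 libraries were fitted alone, 12 with DESeq2 and 4 with 1 SNP per gene, and all genes called in the first 2 of these fits were among the 32. Leaving out 1 library in turn gave 14 to 22 genes with a changed ratio (15 without day 5 replicate 1 and 15 without day 5 replicate 2) and 49 to 81 with a changed level. The count of 88 changed levels was 37 with the 4 libraries alone and 52 with 1 SNP per gene. Apart from DESeq2, these settings leave fewer samples, reads or genes. Why DESeq2 called fewer ratios was not tested, and for levels it called 91. Alternative values per gene were made only for the genes named for their smallest adjusted p and for Hprt. Of these, 152 ratio values and all 274 level values kept their direction and their side of the threshold. Another 20 ratio values were no longer called, and none reversed. Other genes named in the text did change side, such as Ammecr1, which lost its level call under TMM, and Acsl4, which gained one.

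Without the replicate block 24 ratios were called, all among the 32. With the block, calls for levels went from 88 to 114 and calls for 129 reads from 59 to 89. Nothing but the number pairs the libraries in the labels, and the deviations of same-numbered libraries had a mean correlation of 0.0265 for ratios and 0.154 for levels. Between the day 0 and day 5 libraries compared here it was -0.0827 for ratios and 0.236 for levels. The adjusted ratio p (edgeR) of Klhl13 was 1.51e-06 without the block and 9.01e-05 with the 4 libraries alone. For Ap1s2 these were 4.22e-05 and 0.00139.

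Depth limits the ratio: a gene at 10 reads in the shallowest library, with 32972 reads in all, carries little information on its allele share.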
